A study of Mus musculus with 12 samples.

Results

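Tnf and 9 genes of the NF-kB pathway (Nfkb1, Nfkb2, Relb, Nfkbia, Nfkbie, Nfkbiz, Tnfaip3, Tnfaip2 and Zfp36) were followed by RNA-seq in mouse bone marrow-derived macrophages (BMDMs), which are macrophages grown from marrow cells with the growth factor M-CSF. The genes were taken as a named list and found by Ensembl identifier, 1 identifier for each symbol, among 48795 genes listed. All 10 passed the filter on low counts and were among the 11228 genes tested. The rule that names them uses no measured value, but the list was drawn up with earlier results of these data known.

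The study compared cells from wild-type (WT) and Acod1-/- male mice of 7 to 11 weeks in 6 groups of 2 libraries. ACOD1 is the mitochondrial enzyme that makes itaconate. The strain is labelled C57BL/6 for WT and C57BL/6NJ-Acod1em1(IMPC)J/J for Acod1-/-, and the study's methods give C57BL/6NJ for WT. BMDMs of each genotype received vehicle, 20 ug/cm2 of particulate matter (PM, an urban dust standard) for 24 hours, or PM after 2 hours with 0.25 mM of 4-octyl itaconate (OI), an itaconate ester that enters cells. All cells had been cultured for 8 to 10 days, and OI without PM was not analysed here. Nothing in the labels says that the libraries of a group came from separate mice or cultures, so p-values measure the spread between these libraries, which may be technical.

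In resting cells, NF-kB dimers are held in the cytoplasm by IkB proteins. Signals such as TNF lead to the loss of IkB, and the dimers then enter the nucleus and switch on genes of inflammation. Among their best-known targets are genes that limit the response, including Nfkbia, which encodes IkB alpha, and Tnfaip3, which encodes the ubiquitin-editing enzyme A20, so that in macrophages the level of such genes is often read as a record of recent NF-kB activity.

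The sequences just before the transcription starts are shown because the kappaB motif, to which NF-kB binds, is what many of these genes are known to share. RefSeq promoter windows of build GRCm38.p6, each of 300 bases from 250 before to 50 after a start, were matched by symbol for 7 of the 10 genes, and Nfkb1, Relb and Nfkbiz had no entry. Both strands were searched for the kappaB consensus. At least 1 window of 5 genes held a match, against 9.55% of the 27025 genes with a window. The matches were in Nfkb2, Nfkbia, Nfkbie, Tnfaip3 and Tnfaip2. The 150 bases before each start are printed from 5′ to 3′ on the strand of the gene, with the matches in capitals, and for Nfkb2 and Tnfaip3, which have several starts, the first window is used. Overlapping matches run together in capitals. The starts are those of RefSeq and differ from the gene ends of GENCODE used for the positions given below. The printed stretches of Nfkb2, Tnfaip3, Tnfaip2 and Zfp36 lie inside the GENCODE spans of these genes, and those of Tnf, Nfkbia and Nfkbie lie outside.
Nfkb2, chr19:46304587-46304736, plus strand: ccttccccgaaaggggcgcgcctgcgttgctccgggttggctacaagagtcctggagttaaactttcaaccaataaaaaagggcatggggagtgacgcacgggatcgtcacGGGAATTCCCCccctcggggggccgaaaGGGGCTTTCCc
Nfkbia, chr12:55492648-55492797, minus strand: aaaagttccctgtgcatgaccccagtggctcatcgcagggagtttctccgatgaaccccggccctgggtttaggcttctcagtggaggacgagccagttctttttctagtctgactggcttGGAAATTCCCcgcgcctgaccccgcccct
Nfkbie, chr17:45555550-45555699, plus strand: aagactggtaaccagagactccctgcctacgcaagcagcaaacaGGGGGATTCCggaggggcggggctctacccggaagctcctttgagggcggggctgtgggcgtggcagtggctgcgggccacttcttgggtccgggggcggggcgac
Tnfaip3, chr10:19015411-19015560, minus strand: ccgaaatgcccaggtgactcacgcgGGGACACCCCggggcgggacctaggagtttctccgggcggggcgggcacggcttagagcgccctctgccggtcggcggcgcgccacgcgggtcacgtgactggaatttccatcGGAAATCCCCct
Tnfaip2, chr12:111442511-111442660, plus strand: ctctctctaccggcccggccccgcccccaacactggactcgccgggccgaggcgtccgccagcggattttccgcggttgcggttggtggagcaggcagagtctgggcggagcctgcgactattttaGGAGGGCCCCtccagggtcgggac
Tnf, chr17:35202008-35202157, minus strand: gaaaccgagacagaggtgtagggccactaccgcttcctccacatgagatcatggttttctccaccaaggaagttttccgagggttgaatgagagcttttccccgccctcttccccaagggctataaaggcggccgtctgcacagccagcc
Zfp36, chr7:28379229-28379378, minus strand: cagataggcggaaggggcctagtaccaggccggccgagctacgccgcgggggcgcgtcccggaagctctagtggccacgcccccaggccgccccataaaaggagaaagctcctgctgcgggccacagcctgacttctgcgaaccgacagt

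In the first windows, the match nearest to the start was 11 bases before it in Nfkb2, 12 in Tnfaip3, 24 in Tnfaip2, 29 in Nfkbia and 106 in Nfkbie, counted to the first base of the match. Another window of Nfkb2 held a match that began past its start, at position +11. The windows of Tnf and Zfp36 held no match, which says only that these letters are not in this stretch. A match is a description of the sequence, and binding was not measured.

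The libraries held between 33616577 and 36817898 counts on genes. The targeted gene was examined first. Acod1 (chr14:103046977-103056573) was at 181 and 170 CPM (counts scaled to library size, normalized by TMM) in WT cells with PM and at 108 and 94.1 in Acod1-/- cells with PM. All libraries labelled Acod1-/- were below the WT libraries of the same treatment, by 0.81 with vehicle, 0.80 with PM and 0.81 with OI and PM on the log2 scale, and none of these differences passed the test (adjusted p from 0.0509 to 0.492, edgeR). Acod1 RNA was counted under both labels, and it rose with PM 80.7-fold in WT and 81.1-fold in Acod1-/- cells. Why it was counted in libraries labelled Acod1-/- was not tested, and counts over a whole gene do not separate edited from unedited sequence. These counts give no check of the genotype, which is written here as the labels have it. Markers of macrophages were present in every library, with all 9 listed genes above 1 CPM in at least 1 library and a sum between 14500 and 27600 CPM. The sum was 14600 to 14900 CPM with vehicle, 23400 to 27600 with PM and 14500 to 16700 with OI and PM. A list of 7 neutrophil markers was at 5.98 to 6.59 CPM with vehicle, 12.4 to 19.1 with PM and 29.5 to 61.0 with OI and PM, and S100a8 made up nearly all of it with OI and PM, at 28.8 to 60.5 CPM. S100a9 went the other way with OI, from 1.26 and 2.16 CPM with PM to 0.419 and 0.474 in WT cells and from 3.23 and 3.31 to 1.02 and 1.05 in Acod1-/- cells, and the defining marker Ly6g was at 0 in 11 of the 12 libraries. The part of these lists in the results was not tested. In bulk RNA, fewer cells of a type and less RNA per cell cannot be told apart.

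Replicates were closest with vehicle and furthest apart in WT cells with OI and PM. The median absolute difference of a gene between replicates was 0.0606 and 0.0513 on the log2 scale for vehicle in WT and Acod1-/- cells, and 0.253 for OI and PM in WT cells. In that last group Tnf, Relb, Nfkbia and Nfkbie were lower in replicate 1 than in replicate 2 by 0.62, 0.60, 0.43 and 0.35 on the log2 scale. In the same group the difference between replicates followed exonic length across genes (Spearman's rho = 0.61, across genes, which are not independent replicates), and with PM in WT cells it did so too (rho = 0.60). With PM in Acod1-/- cells rho had the opposite sign, at -0.36. It was 0.28 and -0.077 with vehicle in WT and Acod1-/- cells, and 0.29 with OI and PM in Acod1-/- cells.

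Particulate matter raised 9 of the 10 genes in both genotypes, and lowered Zfp36, which encodes the RNA-decay protein tristetraprolin. Tnf, Nfkbie and Nfkbia rose most, and Nfkb1 rose least. Among all tested genes, 12.6% rose and 12.2% fell in WT cells, and 12% rose and 11.9% fell in Acod1-/- cells, at an adjusted p of 0.05 in edgeR. The median log2 fold change of the 10 genes was 1.08 in WT and 1.33 in Acod1-/- cells, against 0.01 and 0.00 over all tested genes. Of the 10 genes, 7 in each genotype also rose at least 2-fold, as did 3.02% of all tested genes in WT and 3.19% in Acod1-/- cells.

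The ligand Tnf (chr17:35199381-35202007, minus strand) encodes the cytokine that signals through the TNF receptors. It was at 12.1 and 11.99 CPM in WT vehicle libraries, 69.3 and 70.3 with PM, and 22.0 and 33.9 with OI and PM. In Acod1-/- cells the same groups held 15.6 and 17.4, 70.0 and 66.2, and 28.7 and 29.9 CPM. PM libraries lay far above the other groups in both genotypes, and the OI and PM libraries lay between vehicle and PM without overlap. The rise with PM was 5.79-fold in WT (log2 2.53, SE 0.165, adjusted p = 4.29e-06) and 4.13-fold in Acod1-/- cells (log2 2.05, SE 0.161, adjusted p = 1.27e-05). OI lowered Tnf 2.5-fold in WT cells (log2 -1.32, SE 0.156, adjusted p = 8.26e-05) and 2.32-fold in Acod1-/- cells (log2 -1.22, SE 0.156, adjusted p = 0.00016).

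**Figure D1:**
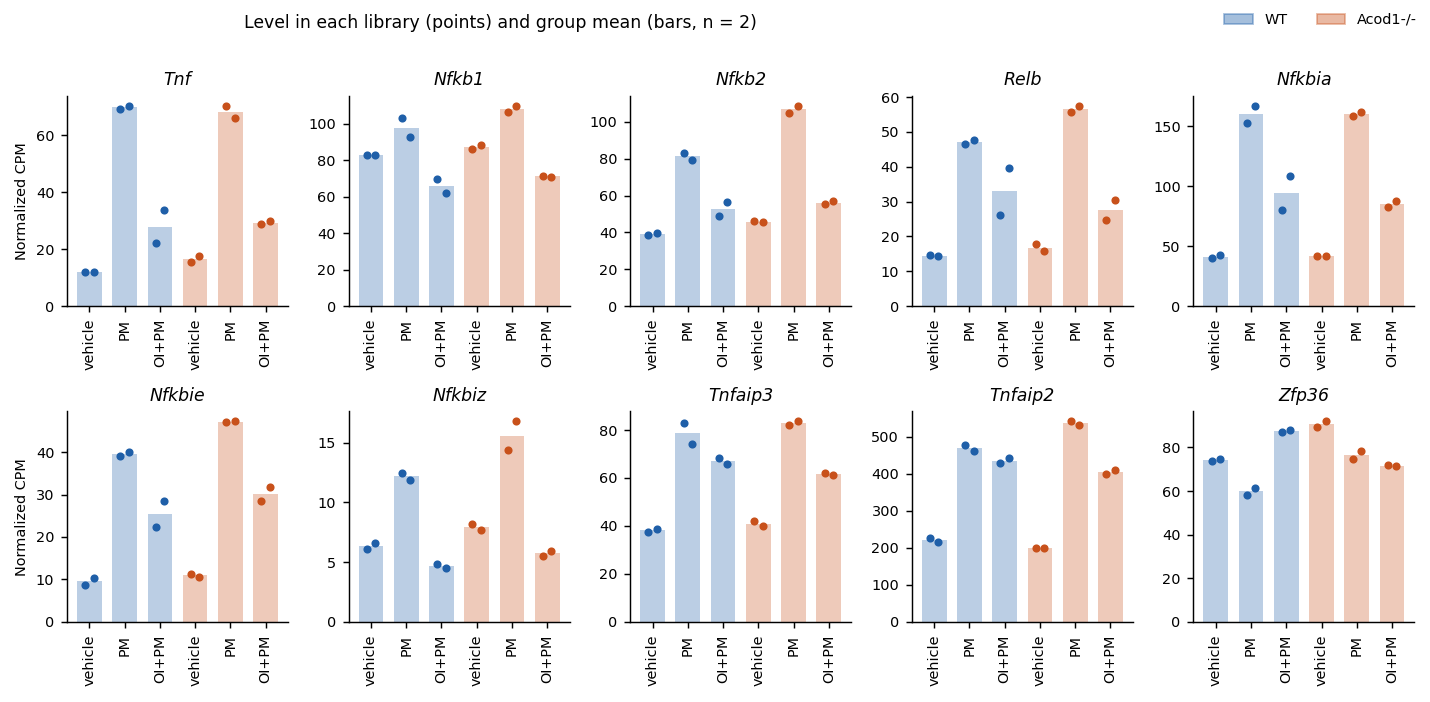
Normalized CPM (vertical axis, linear from 0, its own range in each panel) of the 10 genes in the 6 groups; points are libraries and bars are means of 2 libraries, blue for WT and orange for Acod1-/-. In Tnf the PM libraries stand between 66.2 and 70.3 CPM in both genotypes, while Nfkbiz with OI and PM falls below its vehicle libraries.

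Of the subunits that form NF-kB dimers, Relb and Nfkb2 belong to the alternative arm of the pathway and Nfkb1 encodes the p105 precursor of p50. Relb (chr7:19606217-19629438, minus strand) was at 14.6 and 14.4 CPM with vehicle, 46.6 and 47.7 with PM and 26.2 and 39.6 with OI and PM in WT cells. It was at 17.8 and 15.9, 55.6 and 57.6, and 24.6 and 30.5 CPM in Acod1-/- cells. The 3 treatments did not overlap in either genotype, although the WT replicates with OI and PM were far apart. PM raised Relb 3.25-fold in WT (log2 1.70, SE 0.171, adjusted p = 8.03e-05) and 3.36-fold in Acod1-/- cells (log2 1.75, SE 0.17, adjusted p = 5.25e-05). OI lowered it by 1.04 on the log2 scale in Acod1-/- cells (SE 0.166, adjusted p = 0.000756). In WT cells it fell by 0.52 (SE 0.165, adjusted p = 0.0275), and this call was lost in a fit of the WT PM and OI+PM libraries alone (adjusted p = 0.142). It was also lost without either WT PM library and without replicate 1 of the WT cells with OI and PM (log2 -0.25). With 1 library left out, the log2 change in WT cells ran from -0.85 to -0.25.

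Nfkb2 (chr19:46304320-46312385, plus strand), the gene of the p100 precursor of p52, was at 38.4 and 39.7 CPM with vehicle, 83.3 and 79.2 with PM and 48.7 and 56.7 with OI and PM in WT cells. In Acod1-/- cells the groups held 46.1 and 45.6, 105 and 109, and 55.3 and 57.0 CPM. The PM libraries of Acod1-/- cells were the highest of all 12. Its exons share 830 bases with genes on the opposite strand (Psd and AC114539.1), and since the handling of strand is not given in the sources used here, its counts are uncertain to that extent. The rise with PM was 2.08-fold in WT (log2 1.06, SE 0.0782) and 2.33-fold in Acod1-/- cells (log2 1.22, SE 0.0781), and the fall with OI was 0.63 and 0.93 on the log2 scale (SE 0.0776 in each), all with adjusted p of 0.000117 or less.

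Nfkb1 (chr3:135584655-135691547, minus strand) had the smallest rise with PM of the 3 subunits. With vehicle, PM, and OI and PM, its WT libraries held 82.7 and 82.7, 103 and 92.7, and 69.8 and 62.1 CPM, and its Acod1-/- libraries 86.3 and 88.1, 106 and 110, and 71.5 and 70.7 CPM. OI and PM libraries were the lowest in both genotypes. The rise with PM was 1.18-fold in WT (log2 0.24, SE 0.0747, adjusted p = 0.0411) and 1.24-fold in Acod1-/- cells (log2 0.31, SE 0.0746, adjusted p = 0.0142). The WT call was lost in 8 alternatives: in a fit of the compared groups alone, with RLE scaling, with either other filter on low counts (log2 0.23 to 0.24, adjusted p from 0.0577 to 0.0816), with total count scaling (log2 0.15, adjusted p = 0.231), and without either vehicle library or replicate 1 of WT PM (log2 0.16 to 0.24, adjusted p from 0.156 to 0.179). The Acod1-/- call was lost without any of the 4 libraries compared (log2 0.28 to 0.33, adjusted p from 0.0569 to 0.102) and with total count scaling (log2 0.23, adjusted p = 0.0945). With a correction for gene length, this gene of 12061 exonic bases had a log2 change of 0.50 in WT cells (adjusted p = 0.000126). In Acod1-/- cells the log2 change ran from 0.23 to 0.53 over the alternatives other than leaving out a library. OI lowered Nfkb1 by 0.57 in WT and 0.60 in Acod1-/- cells on the log2 scale (SE 0.0752 and 0.0751, adjusted p = 0.000181 and 0.000133).

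The 3 IkB family genes among the 10, Nfkbia, Nfkbie and Nfkbiz, rose with PM and fell with OI in both genotypes. Nfkbia (chr12:55489410-55492647, minus strand) encodes IkB alpha, which NF-kB itself induces and which takes the dimers back out of the nucleus. Its WT libraries held 39.8 and 42.7 CPM with vehicle, 153 and 167 with PM, and 80.6 and 109 with OI and PM. Acod1-/- libraries held 41.7 and 42.0, 159 and 162, and 83.0 and 87.5 CPM. Levels in the genotypes overlapped in vehicle, in PM and in OI and PM libraries. PM raised Nfkbia 3.88-fold in WT (log2 1.96, SE 0.122, adjusted p = 3.19e-06) and 3.83-fold in Acod1-/- cells (log2 1.94, SE 0.122, adjusted p = 2.95e-06). OI lowered it 1.69-fold (log2 -0.76, SE 0.118, adjusted p = 0.000542) and 1.88-fold (log2 -0.91, SE 0.118, adjusted p = 0.000181).

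Nfkbie (chr17:45555703-45563169, plus strand), which encodes IkB epsilon, was at 8.71 and 10.4 CPM with vehicle, 39.2 and 40.0 with PM and 22.3 and 28.5 with OI and PM in WT cells. In Acod1-/- cells it was at 11.4 and 10.5, 47.1 and 47.2, and 28.5 and 31.8 CPM. It was the gene with the second largest rise with PM in WT cells, 4.14-fold (log2 2.05, SE 0.127, adjusted p = 3.02e-06), and in Acod1-/- cells its rise of 4.31-fold (log2 2.11, SE 0.126, adjusted p = 2.07e-06) had the largest estimate of the 10. OI lowered it by 0.64 in WT and 0.65 in Acod1-/- cells on the log2 scale (SE 0.119 and 0.118, adjusted p = 0.00177 and 0.00181).

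Nfkbiz (chr16:55811375-55838899, minus strand) encodes IkB zeta, a nuclear member of the family that acts as a co-activator at a second wave of NF-kB targets. Of the 10 genes it had the lowest level per exonic kb in these groups, with means of 1.26 CPM per kb in WT vehicle and 2.42 in WT PM libraries. Its WT libraries held 6.07 and 6.59 CPM with vehicle, 12.4 and 11.9 with PM, and 4.85 and 4.53 with OI and PM. Acod1-/- libraries held 8.17 and 7.66, 14.4 and 16.8, and 5.50 and 5.95 CPM. With OI and PM, Nfkbiz was lower in every library than in any vehicle library of the same genotype. PM raised it 1.92-fold in WT (log2 0.94, SE 0.104, adjusted p = 0.000142) and 1.97-fold in Acod1-/- cells (log2 0.98, SE 0.101, adjusted p = 8.08e-05). OI then lowered it 2.59-fold (log2 -1.37, SE 0.11, adjusted p = 4.69e-06) and 2.72-fold (log2 -1.44, SE 0.106, adjusted p = 2.61e-06), the largest estimates of the 10 genes in this comparison. In WT cells its order with Tnf depended on the libraries. With 1 left out, Tnf ran from -1.67 to -1.04 and Nfkbiz from -1.42 to -1.33.

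The remaining genes act on the signal, on other proteins or on RNA. Tnfaip3 (chr10:19000910-19015657, minus strand) was at 37.6 and 38.7 CPM with vehicle, 82.8 and 74.4 with PM and 68.4 and 66.0 with OI and PM in WT cells. In Acod1-/- cells it was at 42.0 and 40.0, 82.3 and 83.6, and 62.0 and 61.4 CPM. Its levels with OI and PM stayed closer to PM than to vehicle in WT libraries. PM raised it 2.06-fold in WT (log2 1.04, SE 0.0694, adjusted p = 4.98e-06) and 2.02-fold in Acod1-/- cells (log2 1.02, SE 0.0693, adjusted p = 4.81e-06). OI lowered it by 0.23 on the log2 scale in WT (SE 0.0684, adjusted p = 0.0231) and by 0.43 in Acod1-/- cells (SE 0.0685, adjusted p = 0.000767). The WT call was lost in a fit of the WT PM and OI+PM libraries alone (adjusted p = 0.26), without replicate 1 of WT PM (log2 -0.15, adjusted p = 0.155) and without replicate 2 of WT OI and PM (log2 -0.20, adjusted p = 0.0635).

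Tnfaip2 (chr12:111442469-111455018, plus strand), a TNF-induced gene whose protein takes part in the formation of membrane nanotubes, had the highest level per exonic kb of the 10 genes in WT vehicle libraries, at a mean of 44.2 CPM per kb. It was at 226 and 215 CPM with vehicle, 478 and 462 with PM and 428 and 443 with OI and PM in WT cells, and at 199 and 199, 542 and 531, and 399 and 411 CPM in Acod1-/- cells. The rise with PM was 2.14-fold in WT (log2 1.09, SE 0.0532, adjusted p = 6.28e-07) and 2.7-fold in Acod1-/- cells (log2 1.43, SE 0.0537, adjusted p = 1.42e-07). OI lowered it by 0.40 on the log2 scale in Acod1-/- cells (SE 0.0526, adjusted p = 0.000181). In WT cells the difference of -0.11 (95% interval -0.228 to 0.00701) did not pass (adjusted p = 0.114), and it passed with total count scaling (log2 -0.24, adjusted p = 0.00447) and among genes with CPM above 1.5 in all 12 libraries (log2 -0.14, adjusted p = 0.0444). Its exons share 314 bases with Gm40578 on the opposite strand.

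Zfp36 (chr7:28376784-28380253, minus strand) encodes a protein that binds AU-rich elements, Tnf RNA among its targets, and speeds their decay. It was at 73.6 and 74.8 CPM with vehicle, 58.2 and 61.5 with PM and 87.0 and 88.2 with OI and PM in WT cells. In Acod1-/- cells it was at 89.4 and 91.9, 74.7 and 78.2, and 71.9 and 71.3 CPM. PM libraries were the lowest in WT cells and OI and PM libraries the highest, whereas in Acod1-/- cells vehicle libraries were the highest and OI and PM libraries the lowest. With PM it fell by 0.31 on the log2 scale in WT (SE 0.0597, adjusted p = 0.0048) and by 0.25 in Acod1-/- cells (SE 0.0594, adjusted p = 0.014). The latter call was lost without either Acod1-/- vehicle library or replicate 1 of Acod1-/- PM (log2 -0.27 to -0.21, adjusted p from 0.0663 to 0.114). OI raised it by 0.55 in WT cells (SE 0.0598, adjusted p = 4.69e-05), and in Acod1-/- cells the difference was -0.09 (95% interval -0.228 to 0.0391, adjusted p = 0.263). Its exons share 125 bases with Gm44710 on the opposite strand.

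**Figure D2:**
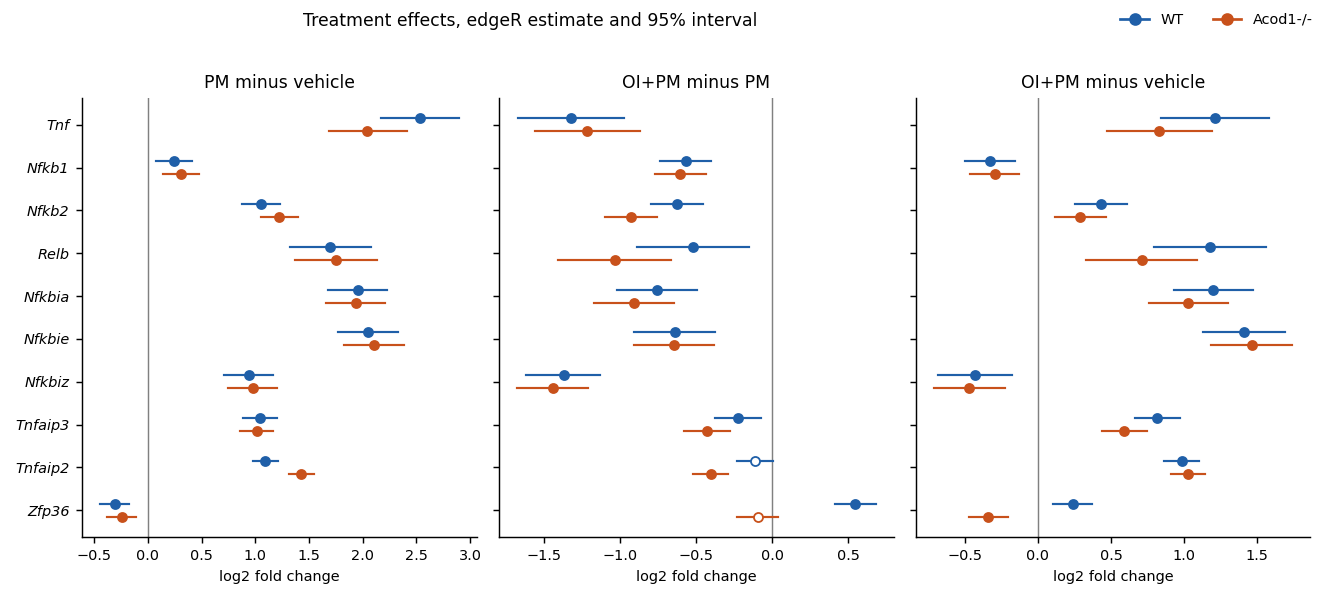
Log2 fold change (horizontal axis) of each gene for PM against vehicle, OI and PM against PM, and OI and PM against vehicle, with the 95% interval from edgeR; blue is WT, orange is Acod1-/-, and filled points passed an adjusted p of 0.05. Tnf rises by 2.53 and 2.05 with PM, and Zfp36 moves by 0.55 in WT and -0.09 in Acod1-/- cells with OI.

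With OI, then, 8 of the 10 genes fell and 1 rose in WT cells, and 9 fell and 0 rose in Acod1-/- cells. In this comparison 21.3% of all tested genes rose and 22.6% fell in WT cells, and 13.9% rose and 20.6% fell in Acod1-/- cells. The median log2 fold change of the 10 genes was -0.60 in WT and -0.78 in Acod1-/- cells, against 0.02 and 0.00 over all tested genes. Tnf and Nfkbiz fell at least 2-fold in both genotypes, and Relb did so in Acod1-/- cells, against 8.49% of all tested genes in WT and 7.98% in Acod1-/- cells. This comparison and the one of PM with vehicle share the PM libraries.

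How much of the rise with PM was left after OI differed between the genes. As a share of the rise in CPM over the mean of the vehicle libraries, the WT libraries with OI and PM kept 17.2% and 37.8% for Tnf, 22.9% and 41.7% for Nfkb2, and 33.1% and 56.6% for Nfkbia. They kept 42.5% and 63.0% for Nfkbie, 35.8% and 76.9% for Relb, 74.8% and 68.9% for Tnfaip3, and 83.3% and 89.0% for Tnfaip2. Tnfaip2 kept the most, and between Tnf and Relb each gene's pair of libraries overlapped with that of its neighbour in this order. Acod1-/- libraries kept 15.4% and 18.2% for Nfkb2, 23.6% and 26.0% for Tnf, 19.6% and 34.5% for Relb, and 34.8% and 38.6% for Nfkbia. They kept 50% and 48.6% for Tnfaip3, 48.5% and 57.6% for Nfkbie, and 59.4% and 62.8% for Tnfaip2. Tnfaip2 again kept the most. Nfkbiz kept none of its rise in either genotype, at -25.3% and -30.8% in WT and -31.6% and -25.8% in Acod1-/- libraries. Nor did Nfkb1, whose rise was small, at -85.9% and -137% in WT and -75.7% and -79.5% in Acod1-/- libraries. These shares are descriptions, with no test.

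Set directly against vehicle, OI and PM left 8 of the 10 genes higher and 2 lower in WT cells, and 7 higher and 3 lower in Acod1-/- cells. Of all tested genes, 33.6% were higher and 31.9% lower in WT cells, and 22.7% were higher and 26.7% lower in Acod1-/- cells. Nfkbie remained 2.66-fold above vehicle in WT (log2 1.41, SE 0.127, adjusted p = 8.37e-06) and 2.76-fold above it in Acod1-/- cells (log2 1.46, SE 0.126, adjusted p = 6.61e-06). Tnf remained 2.31-fold above vehicle in WT (log2 1.21, SE 0.164, adjusted p = 0.00015) and 1.78-fold above it in Acod1-/- cells (log2 0.83, SE 0.161, adjusted p = 0.00187). Nfkbia, Relb, Tnfaip2, Tnfaip3 and Nfkb2 were also above vehicle in both genotypes, by 0.43 to 1.2 on the log2 scale in WT and by 0.29 to 1.03 in Acod1-/- cells. In Acod1-/- cells the calls of Nfkb2 and Relb were lost without vehicle replicate 2 (adjusted p = 0.0674 and 0.0547) or without OI and PM replicate 2 (0.0724 and 0.0639), and that of Nfkb2 also without vehicle replicate 1 (0.0563) and with total count scaling (log2 0.14, adjusted p = 0.11). Nfkbiz was below vehicle by 0.43 in WT (SE 0.114, adjusted p = 0.0079) and by 0.47 in Acod1-/- cells (SE 0.109, adjusted p = 0.00553) on the log2 scale, and the WT call was lost without replicate 2 of WT vehicle (log2 -0.37, adjusted p = 0.0552). Nfkb1 was below vehicle by 0.33 in WT (SE 0.0751, adjusted p = 0.00376) and 0.29 in Acod1-/- cells (SE 0.075, adjusted p = 0.00874), but with the correction for gene length the values were 0.04 (adjusted p = 0.575) and -0.06 (adjusted p = 0.444). The WT call was also lost in a fit of the compared groups alone (adjusted p = 0.0587), and the Acod1-/- call without replicate 2 of vehicle (0.0571) or of OI and PM (0.0569). Zfp36 was above vehicle by 0.24 in WT (SE 0.0595, adjusted p = 0.00576), which total count scaling reduced to 0.02 and the length correction to 0.11, both no longer past the threshold, as in a fit of the compared groups alone (log2 0.22, adjusted p = 0.105), and it was below vehicle by 0.34 in Acod1-/- cells (SE 0.0595, adjusted p = 0.000974). Total count scaling moved the median of all tested genes to -0.20 in WT and -0.15 in Acod1-/- cells here.

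The libraries labelled Acod1-/- and WT were compared next, within each treatment. With vehicle, 1 of the 10 genes passed, against 1.83% of all tested genes, and with PM 2 passed, against 2.4%. With OI and PM 1 passed, against 6.96%. Zfp36 was the gene that passed in all 3 treatments. It was higher in Acod1-/- than in WT cells by 0.29 on the log2 scale with vehicle (SE 0.0594, adjusted p = 0.0419) and by 0.35 with PM (SE 0.0598, adjusted p = 0.0134). In cells that had OI and PM it was lower in Acod1-/- cells, at -0.29 (SE 0.0596, adjusted p = 0.0218). The libraries of the genotypes did not overlap in any treatment, and the share of all tested genes without overlap was not counted. The vehicle call was lost without any of its 4 libraries (log2 0.27 to 0.31, adjusted p from 0.254 to 0.373), under total count scaling and with either other filter on low counts (adjusted p from 0.0507 to 0.0985). The PM call was lost without replicate 1 of WT PM or either Acod1-/- PM library (log2 0.31 to 0.39, adjusted p from 0.0743 to 0.133) and in a fit of the compared groups alone (adjusted p = 0.158). The call with OI and PM was lost without either Acod1-/- library (adjusted p = 0.146 and 0.155), under total count scaling (log2 -0.22, adjusted p = 0.0668), with a minimum of 10 counts (adjusted p = 0.0516) and in a fit of the compared groups alone (adjusted p = 0.39). The estimates kept their direction in every alternative. Nfkb2 was higher in Acod1-/- cells with PM by 0.40 (SE 0.0766, adjusted p = 0.0272), a call that was lost without any of the 4 libraries compared (log2 0.36 to 0.43, adjusted p from 0.0659 to 0.206) and in a fit of the compared groups alone (adjusted p = 0.0932).

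**Figure D3:**
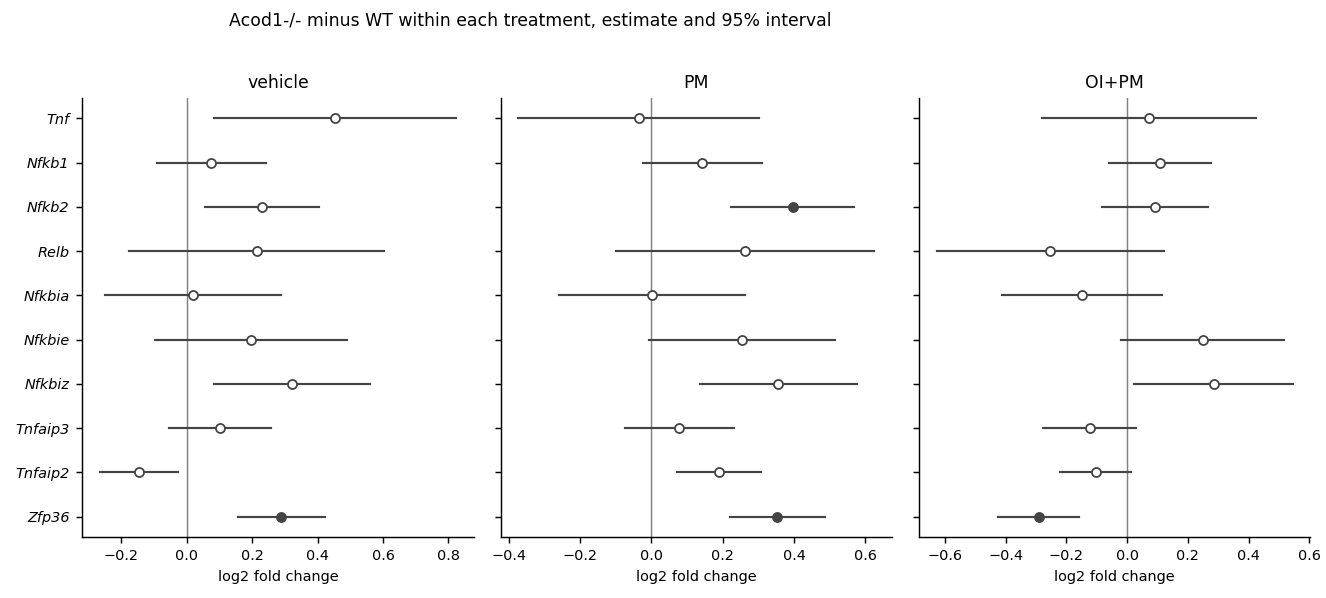
Log2 difference between Acod1-/- and WT cells (horizontal axis, its own range in each panel) for each gene within vehicle, PM, and OI and PM, with the 95% interval from edgeR; filled points passed an adjusted p of 0.05. Zfp36 passes in each panel, at 0.29, 0.35 and -0.29.

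For the other 8 genes no genotype difference passed the test in the fit of all 12 libraries, though some did in an alternative. Tnf differed by 0.45 with vehicle (95% interval 0.0831 to 0.823, adjusted p = 0.329), at -0.04 with PM (-0.373 to 0.301, adjusted p = 0.937) and by 0.07 with OI and PM (-0.281 to 0.424, adjusted p = 0.767). With vehicle the Tnf difference passed in a fit of those groups alone (adjusted p = 2.49e-05), in which 20.6% of all tested genes passed against 1.83% in the fit of all 12 libraries, and with the length correction (adjusted p = 0.0432; 3.32% of all genes), and with OI and PM it was 0.41 without WT replicate 2 (adjusted p = 0.0282) and -0.21 without WT replicate 1 (adjusted p = 0.0587). Nfkbia with PM differed by 0.00 (-0.26 to 0.261, adjusted p = 0.998) and Tnfaip3 with PM by 0.08 (-0.0739 to 0.231, adjusted p = 0.674). Nfkbiz was higher in both Acod1-/- libraries than in both WT libraries of every treatment, by 0.32, 0.36 and 0.28 on the log2 scale, with adjusted p of 0.25, 0.107 and 0.145. Nfkbie showed the same order at smaller estimates of 0.20, 0.25 and 0.25, with adjusted p of 0.788, 0.374 and 0.193. So did Nfkb1, at 0.08, 0.14 and 0.11. Lack of overlap between the genotypes was common among the 10 genes. With vehicle only Nfkbia overlapped, and with PM only Tnf, Nfkbia and Tnfaip3 did. The share of all tested genes without overlap was not counted, so the order is a description. In the same fit of the vehicle groups alone, with its 20.6% of all genes passing, the differences of Nfkbiz (log2 0.31, adjusted p = 0.0233), Relb (0.20, adjusted p = 0.0371) and Tnfaip2 (-0.16, adjusted p = 0.000718) passed. With PM, Tnfaip2 passed in DESeq2 (0.20, adjusted p = 0.0193) and with the length correction (0.19, adjusted p = 0.0448), where 3.87% and 5.25% of all genes passed. With OI and PM the length correction brought Nfkbie (0.34, adjusted p = 0.0282) and Tnfaip3 (-0.20, adjusted p = 0.0379) past the threshold, with 15.4% of all genes passing. Without replicate 1 of WT cells with OI and PM, 48.6% of all tested genes differed between the genotypes, against 6.96% with it. In that fit Relb was lower in Acod1-/- cells, at a log2 difference of -0.52 (adjusted p = 0.00448), as was Nfkbia, at -0.35 (adjusted p = 0.00494), while without replicate 2 they stood at 0.07 and 0.08 and did not pass (adjusted p = 0.809 and 0.645).

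Whether the genotypes responded differently was tested by interaction terms. For the response to PM, 0 of the 11228 genes passed (0%, edgeR), 273 had an unadjusted p under 0.05, and DESeq2 called 3. For the response to OI, 0 passed (0%), 717 had an unadjusted p under 0.05, and DESeq2 called 34. None of the 10 genes passed in edgeR. The rise of Tnf with PM was smaller in Acod1-/- cells by 0.49 on the log2 scale (95% interval -0.989 to 0.0115, adjusted p = 1), and that of Tnfaip2 was larger by 0.34 (0.169 to 0.502, adjusted p = 1). The 8 remaining estimates for PM lay between -0.02 and 0.16.

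The response of Zfp36 to OI differed most of the 10 genes between the genotypes, and it had the second smallest p of all tested genes in this interaction. The change in Acod1-/- cells was lower than in WT cells by 0.64 on the log2 scale (SE 0.0844, 95% interval -0.832 to -0.455, adjusted p = 0.0825). DESeq2 gave the same estimate with an adjusted p of 7.61e-08, and the length correction gave -0.60 (adjusted p = 0.0416). Of 17 alternatives, 4 brought it past the threshold and 13 did not. Among those that left out no single library, the adjusted p reached 0.577 in edgeR. Over the 8 fits that leave out 1 library each, the estimates ran from -0.68 to -0.59. Relb had an interaction of -0.52 (-1.04 to 0.00461, adjusted p = 0.774), Nfkb2 of -0.30 (-0.549 to -0.0604, adjusted p = 0.738) and Tnfaip2 of -0.29 (-0.46 to -0.128, adjusted p = 0.451). With 1 library left out, Relb ran from -0.79 to -0.19, Nfkb2 from -0.41 to -0.19 and Tnfaip2 from -0.32 to -0.27. These 3 passed only in the fit without replicate 1 of WT cells with OI and PM, at -0.79, -0.41 and -0.32 (adjusted p = 0.0303, 0.041 and 0.0457), a fit in which 4.68% of all tested genes passed, against 0% with all libraries.

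Across the 12 libraries the 10 genes fell into a close group, a pair and a gene that stood apart. Pearson's r of log2 CPM is given here as a description, since the libraries share groups and treatments. Tnf, Nfkb2, Relb, Nfkbia, Nfkbie, Tnfaip3 and Tnfaip2 had r between 0.824 and 0.984 with each other, highest for Relb and Nfkbia. Nfkb1 and Nfkbiz had r of 0.956 with each other, while with the 7 genes Nfkb1 ranged from 0.15 (Tnfaip2) to 0.635 (Nfkb2) and Nfkbiz from 0.366 (Tnfaip2) to 0.808 (Nfkb2). Zfp36 had r between -0.532 and -0.373 with the other 9.

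**Figure D4:**
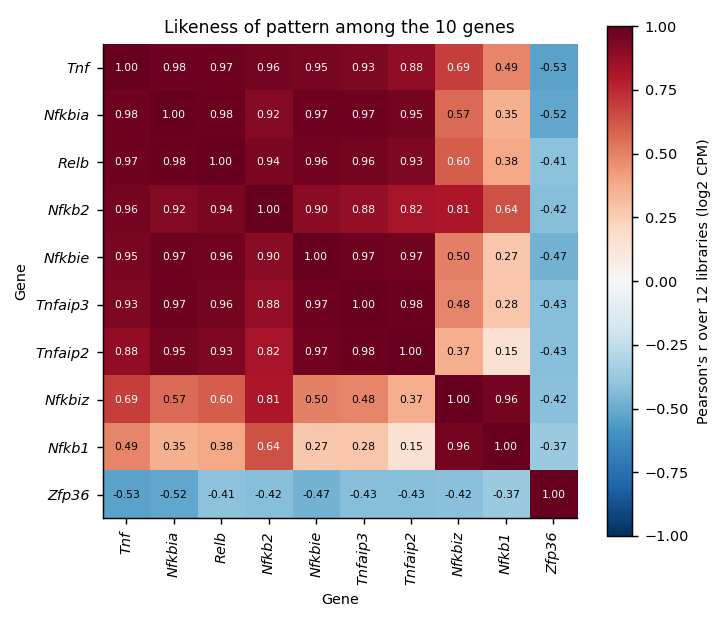
Pearson's r (colour and printed value) between the log2 normalized CPM of each pair of the 10 genes over the 12 libraries. The 7 genes at the top left reach 0.824 or more with each other, Nfkb1 and Nfkbiz pair at 0.956, and Zfp36 is negative with every other gene.

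Outside the list, the genes most like Tnf among 9562 genes with a mean of at least 5 CPM were Ralgds, Il2rg and Sod2 (r = 0.988 for each), F7 (0.979) and Tapbp (0.978). Sod2, the gene of mitochondrial superoxide dismutase, had means of 64.2, 286 and 131 CPM in WT vehicle, PM, and OI and PM libraries. The genes most like Nfkbiz were Marcksl1 (r = 0.986), Pde4b (0.985), Ifit2 (0.982), Ifit1 (0.981) and Ifih1 (0.98), of which the last 3 are interferon-induced genes. Ifit1 had means of 4.06, 39.9 and 1.02 CPM in the same WT groups, so that, as for Nfkbiz, its level with OI and PM was under that with vehicle.

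The rest of the pathway was read through gene lists, described by counts and medians with no test of the list. Each count is to be set against the shares of all tested genes, of which 12.6% rose and 12.2% fell with PM in WT cells and 12% and 11.9% in Acod1-/- cells, while with OI 21.3% rose and 22.6% fell in WT cells and 13.9% and 20.6% in Acod1-/- cells. Of 13 genes of the TNF receptor complex, 3 rose (23.1%) and 0 fell with PM in WT cells (median log2 change 0.20) and 5 rose (38.5%) and 0 fell in Acod1-/- cells (0.23). With OI 3 rose (23.1%) and 4 fell (30.8%) in WT cells, and 2 rose (15.4%) and 3 fell (23.1%) in Acod1-/- cells, near the shares of all genes. Traf1, an adaptor of TNF receptor 2, went from a mean of 1.04 CPM with vehicle to 9.68 with PM and 1.97 with OI and PM in WT cells, a log2 change of 3.21 with PM (SE 0.191, adjusted p = 2.41e-06) and of -2.30 with OI (SE 0.179, adjusted p = 3.79e-06). Birc3, the ubiquitin ligase cIAP2, rose by 1.19 with PM in WT cells (SE 0.081, adjusted p = 5.71e-06). Of 11 IKK and upstream kinases, 1 rose (9.09%) and 2 fell (18.2%) with PM in WT cells, and 1 rose and 0 fell in Acod1-/- cells, with medians of -0.02 and 0.04. With OI 2 rose (18.2%) and 0 fell in WT cells, and 4 rose (36.4%) and 1 fell (9.09%) in Acod1-/- cells. The kinase gene Map3k14, which feeds the alternative arm, rose with OI by 0.69 in WT (SE 0.0799, adjusted p = 7.11e-05) and 0.45 in Acod1-/- cells (SE 0.0779, adjusted p = 0.00124).

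Of the 6 other subunit and IkB genes, 3 rose (50%) and 0 fell with PM in each genotype, against 12.6% and 12% of all genes that rose, with Bcl3, a nuclear IkB protein, at 1.12 in WT (SE 0.139, adjusted p = 0.000296) and 1.59 in Acod1-/- cells (SE 0.137, adjusted p = 2.24e-05). With OI the list went both ways, with 3 risen (50%) and 1 fallen (16.7%) in WT cells and 2 risen and 2 fallen (33.3% each) in Acod1-/- cells. Bcl3 fell by 0.79 (SE 0.138, adjusted p = 0.00117) and 1.34 (SE 0.136, adjusted p = 2.98e-05). Nfkbid, another nuclear IkB gene, did not pass with PM (log2 -0.06 and -0.05, adjusted p = 0.679 and 0.726) and rose with OI by 0.54 in WT (SE 0.0959, adjusted p = 0.00132) and 0.43 in Acod1-/- cells (SE 0.0955, adjusted p = 0.00581). Nfkbib, the gene of IkB beta, rose with PM by 0.91 in WT (SE 0.176, adjusted p = 0.00489) and 0.99 in Acod1-/- cells (SE 0.176, adjusted p = 0.00274). With OI it rose further in WT cells by 0.52 (SE 0.171, adjusted p = 0.0334), and in Acod1-/- cells its change of 0.10 did not pass (adjusted p = 0.701). Of 12 ubiquitin-editing regulators, 6 rose (50%) and 0 fell with PM in WT cells and 5 rose (41.7%) and 0 fell in Acod1-/- cells. With OI 2 rose (16.7%) and 5 fell (41.7%) in WT cells, and 3 rose (25%) and 4 fell (33.3%) in Acod1-/- cells, where 22.6% and 20.6% of all genes fell. Usp18, which removes ISG15 from proteins, fell by 4.14 on the log2 scale in WT cells (SE 0.169, adjusted p = 3.85e-08). Tnip3, which binds A20, fell by 1.11 in WT cells (SE 0.144, adjusted p = 0.000165).

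Of 9 RNA-decay genes, 1 rose (11.1%) and 3 fell (33.3%) with PM in WT cells, against 12.6% and 12.2% of all genes, and 1 rose (11.1%) and 2 fell (22.2%) in Acod1-/- cells, against 12% and 11.9%. With OI 0 rose and 1 fell (11.1%) in each genotype, against 22.6% and 20.6% of all genes that fell. That gene was Zfp36l1, a paralog of Zfp36. Like Zfp36 it fell with PM in both genotypes, by 1.09 in WT (SE 0.103, adjusted p = 5.11e-05) and 0.86 in Acod1-/- cells (SE 0.0997, adjusted p = 0.000172), and unlike Zfp36 it fell with OI. Its mean went from 35.0 CPM with vehicle to 16.4 with PM and 2.09 with OI and PM in WT cells, and from 52.5 to 28.9 and 3.49 in Acod1-/- cells, and the log2 change with OI was -2.96 (SE 0.133, adjusted p = 7.08e-08) and -3.05 (SE 0.121, adjusted p = 3.35e-08). It was higher in Acod1-/- cells in all 3 treatments, by 0.58 with vehicle (SE 0.0986, adjusted p = 0.0161), 0.81 with PM (SE 0.103, adjusted p = 0.00334) and 0.72 in cells that had OI and PM (SE 0.153, adjusted p = 0.0237).

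Of the TNF superfamily ligands other than Tnf, 5 of 8 were tested, and Lta, Ltb and Fasl did not pass the filter. With PM 1 rose and 1 fell in each genotype (20% each), and with OI 0 rose and 3 fell (60%), against 22.6% and 20.6% of all genes that fell. Of 17 other NF-kB target genes tested, 13 rose (76.5%) and 3 fell (17.6%) with PM in both genotypes, with medians of 1.02 in WT and 1.15 in Acod1-/- cells. With OI 1 rose (5.88%) and 12 fell (70.6%) in WT cells (median -1.07), and 0 rose and 14 fell (82.4%) in Acod1-/- cells (median -1.26). Clec4e, a receptor of macrophages, went from a mean of 12.03 CPM with vehicle to 275 with PM and 37.5 with OI and PM in WT cells. Of the 6 genes listed as dependent on IkB zeta, Lcn2 and Saa3 were tested. Both rose with PM and both fell with OI in each genotype, and with PM only Saa3 differed between the genotypes. Lcn2 was low, with means of 0.52, 2.83 and 0.392 CPM with vehicle, PM, and OI and PM in WT cells. In Acod1-/- cells its means were 0.674, 4.665 and 0.594 CPM. Saa3, an acute-phase gene, went from 2.41 to 44.0 and 3.19 CPM in WT and from 4.79 to 135 and 6.84 CPM in Acod1-/- cells. Its rise with PM was 4.19 in WT (SE 0.131, adjusted p = 6.21e-08) and 4.82 in Acod1-/- cells (SE 0.125, adjusted p = 3e-08) on the log2 scale, and it was higher in Acod1-/- cells with PM by 1.62 (SE 0.104, adjusted p = 4.92e-05).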

How the data were processed

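RNA from 12 libraries of BMDMs was analysed, 2 for each genotype and treatment, grouped by their deposited labels. The authors mapped 50 bp single-end reads to GRCm38, and what they deposited are raw, unfiltered counts of reads on genes; the submitters' processing notes name FastQC 0.11.5, STAR 2.5.3a, Picard 2.9.0, featureCounts and DESeq2. The annotation release and the handling of strand are not given in the sources used here.

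Genes with CPM above 1.5 in at least 2 libraries were kept, scaled by TMM, and tested in edgeR 4.0.16 (quasi-likelihood, R 4.3.3) with 1 mean per group. Adjustment of p-values followed Benjamini and Hochberg over all 11228 genes tested. A gene passed when its adjusted p did not exceed 0.05, and it passed the 2-fold threshold when its log2 fold change was also 1 or more in size. Intervals are 95% intervals from the same fit. The test was tried on simulated data. Positions and exonic lengths came from GENCODE M21 on GRCm38, and promoter sequences from RefSeq.

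The 10 genes and all gene lists were chosen with earlier results of these data known. All 10 genes were reported in every comparison. From each list, named genes were taken from the 2 with the smallest p among those that passed (values of Nfkbid and Nfkbib beyond this rule were added after they were seen), and genes of like pattern were the 5 with the highest Pearson's r of log2 CPM (prior count 2). Alternatives were DESeq2 1.42.0, edgeR on only the groups compared, scaling by RLE or by total count, a minimum of 10 counts in total, CPM above 1.5 in all 12 libraries, a replicate block (and, added after seeing the data, one in WT libraries only), a correction for gene length by a lowess curve (span 0.3) with and without the block, the 2-fold threshold, and leaving out each library.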

Additional observations from a re-analysis of the deposited data

Results flagged for a closer look

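Zfp36 rose with OI in WT cells, and its estimate in Acod1-/- cells had the opposite sign. It was higher in both WT libraries with OI and PM than in both with PM, and lower in both Acod1-/- libraries, where the log2 difference was -0.09 and did not pass (adjusted p = 0.263, edgeR). The interaction term gives the test of this difference, -0.64 with an adjusted p of 0.0825 in edgeR. The same term tests the reversal of the genotype difference in Zfp36, which was 0.35 with PM and -0.29 with OI and PM.

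Tnfaip2 was lower in both Acod1-/- libraries than in both WT libraries with vehicle, by 0.15 on the log2 scale, and higher in both with PM, by 0.19. The interaction for PM was 0.34, with an unadjusted p of 0.00119 and an adjusted p of 1 in edgeR. With OI and PM it was again lower in both Acod1-/- libraries, with a difference of -0.10, and the interaction for OI was -0.29, with an adjusted p of 0.451 in edgeR. With 2 libraries in each group, no group was large enough for the rule on outlying libraries. Lack of overlap between groups of this size was common among the genes followed here, and its share over all tested genes was not counted.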

How the results depend on the processing

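Of 1510 values of single genes under the alternatives planned, 1379 kept their direction and their side of the threshold, 60 lost the call, 24 gained it and 47 changed sign. In 45 of the 47, the value was past the threshold neither before nor after. The others were Nfkb1 with OI and PM against vehicle in WT cells, at 0.04 on the log2 scale with the length correction, alone or with the replicate block. For OI against PM in Acod1-/- cells, none of these moved any of the 10 genes across the threshold, though the 2-fold threshold, which is not among them, took the calls from 9 to 3. The causes were not tested.

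With the 2-fold threshold, no gene fell with PM in either genotype (0), 0 rose and 2 fell with OI in WT cells, 3 fell with OI in Acod1-/- cells, 4 rose and 0 fell against vehicle with OI and PM in WT cells, 3 rose and 0 fell there in Acod1-/- cells, and none (0) differed between the genotypes. At that threshold 8.49% and 7.98% of all genes fell with OI in WT and Acod1-/- cells, and 5.38% and 3.88% were above and 10.7% and 9.25% below vehicle with OI and PM. With PM 1.13% of all genes fell in WT and 1.31% in Acod1-/- cells, and with OI 2.3% rose in WT cells. Between the genotypes 0.481% differed with vehicle, 0.561% with PM and 0.917% with OI and PM. Among 10 genes, counts of 0 are near these shares. In edgeR on only the groups compared, 5 genes were higher and 1 lower in Acod1-/- cells with vehicle, where 20.6% of all genes passed against 1.83%, 0 were higher with PM, 0 lower with OI and PM, where 2 of all genes passed, and 1 gene was below vehicle with OI and PM in WT cells. Total count scaling and both other filters left 0 genes higher with vehicle, and total count scaling and the minimum of 10 counts left 0 lower with OI and PM. The length correction gave 2 higher with vehicle, and, alone or with the block, 1 higher and 2 lower with OI and PM, 1 below vehicle with OI and PM in WT cells, and 1 (Zfp36) with an interaction for OI, as did DESeq2. Leaving out 1 library changed which of the 10 genes passed in several comparisons. As it leaves a lone library in a group, log2 ranges are given here. Zfp36 ran from -0.28 to -0.21 with PM in Acod1-/- cells, and Nfkbiz in WT cells with OI and PM from -0.49 to -0.37 against vehicle. In Acod1-/- against WT cells, Zfp36 ran from 0.27 to 0.31 with vehicle, 0.31 to 0.39 with PM and -0.30 to -0.28 with OI and PM. In that comparison Nfkb2 with PM ran from 0.36 to 0.43. The OI interaction of Zfp36 ran from -0.68 to -0.59.

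Sign changes of genotype differences that did not pass were Tnf with PM at 0.01 and Nfkb1 with OI and PM at -0.08 and -0.07 (length correction, without and with the block), Nfkbia with OI and PM at 0.04 (both), and Nfkbia with PM at -0.00 (CPM above 1.5 in all 12 libraries). In the interactions they were Nfkbia for PM at 0.04 (length correction), Nfkb1 for OI at 0.02 (total count scaling), and Nfkbie for OI at 0.00 to 0.06 (0.00 in DESeq2 and RLE scaling, 0.02 in the groups compared alone, 0.01 with other filters, 0.06 with total count scaling and the length correction). Leaving out 1 library gave, for genotype differences, -0.03 to 0.07 (Nfkbia, vehicle), -0.08 to 0.01 (Tnf, PM), -0.06 to 0.07 (Nfkbia, PM), and with OI and PM -0.21 to 0.41 (Tnf), -0.01 to 0.20 (Nfkb2), -0.52 to 0.07 (Relb) and -0.35 to 0.08 (Nfkbia). For the PM interaction it gave -0.01 to 0.15 (Nfkb1), -0.03 to 0.13 (Relb), -0.08 to 0.05 (Nfkbia), -0.08 to 0.14 (Nfkbiz), -0.07 to 0.18 (Nfkbie) and -0.10 to 0.06 (Tnfaip3), and for the OI interaction -0.17 to 0.45 (Tnf), -0.12 to 0.05 (Nfkb1), -0.35 to 0.08 (Nfkbia), -0.18 to 0.04 (Nfkbiz) and -0.17 to 0.18 (Nfkbie).

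The replicate block changed no call of the 10 genes, and over all genes it called 3074 for PM in WT cells. The correlation of the deviations of libraries of the same number, across genes, was 0.227 to 0.733 in the 3 pairs of WT groups, -0.0945 to -0.0358 in the 3 pairs of Acod1-/- groups and -0.412 to 0.251 in the 9 pairs across genotypes, and 5 of the 15 were over 0.1, so the numbers did not pair the libraries throughout. A replicate block in the WT libraries only, chosen after seeing the data, changed none of the 30 calls of the 10 genes in WT comparisons, and over all genes it called 5109 for PM in WT cells, against 2782 without a block. With 2 libraries in each group, leaving out 1 leaves a lone library that is assumed to vary like the other groups, and this number limits what the tests between genotypes can show.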

Other observations

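Of the genes listed as dependent on IkB zeta, those left out by the filter on low counts had few reads, and they are named here after their values were seen. Il6 had 0 and 0 counts in WT vehicle libraries, 16 and 17 with PM and 1 and 0 with OI and PM, and in Acod1-/- cells 0 and 1, 32 and 37, and 4 and 3 counts. Il12b had 0 and 0, 8 and 6, and 3 and 0 counts in WT cells and 0 and 1, 11 and 10, and 1 and 0 counts in Acod1-/- cells. Both were counted mainly in PM libraries, and neither was tested.

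Nos2, the inducible nitric oxide synthase gene and an NF-kB target, was left out by the same filter, with 12 and 11 counts in WT and 27 and 17 in Acod1-/- libraries with PM, and at most 5 counts in any library of the other groups. Csf2 and Csf3 had at most 5 counts in any library.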
